A study of Mus musculus with 6 samples.

Results

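The retinoid genes described here are 9 members of the vitamin A pathway measured in mouse pituitary: the carrier Rbp4, the cytosolic binding proteins Crabp1 and Crabp2, the retinaldehyde dehydrogenases Aldh1a1, Aldh1a2 and Aldh1a3, the nuclear receptors Rara and Rxrg, and the target Tgm2. They are 9 of the 12393 genes that the array annotation pairs with a probe set of their own. Every probe set assigned to exactly 1 of these symbols was taken, 16 in all, dim ones included. The genes were chosen because Rbp4 and Tgm2 read lower and Aldh1a2 higher on the arrays labelled Bmal1-/-, so their differences between the genotypes are given as a description, without a test.

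The samples were pituitary glands of C57BL/6J mice, all males of 8 to 12 weeks: 3 arrays of Bmal1-/- mice (replicates 4 to 6) and 3 of wild type mice (replicates 1 to 3). Both genotypes were housed under the same cycle of light and darkness and killed at zeitgeber time 12, when the lights go off. RNA of each array was pooled from 3 glands of 1 genotype, so n = 3 pools per genotype throughout, and a pool carries no record of the single animal. The labels do not say how the Bmal1 allele was made. Arntl is the gene of BMAL1, a transcription factor that forms pairs with CLOCK or NPAS2 and drives the circadian clock.

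Values are intensities on a linear scale, 1 per probe set and array. On the 3 arrays labelled Bmal1-/- Arntl itself read 112.1, 102 and 127.5, against 39.6, 51.7 and 38.6 on the wild type arrays, a rise of 1.13 on the log2 scale (SE 0.14, limma adjusted p = 0.000653). The part of the gene that its probe set covers is not given, so this reading does not check the labels, and higher or lower in Bmal1-/- glands always means on the arrays that carry that label. Pearson's r between arrays, across tested probe sets, was 0.980 to 0.986 for arrays of 1 genotype and 0.970 to 0.976 for arrays of different genotypes. The median intensity was 31.7 to 32.2 on Bmal1-/- arrays and 33.5 to 34.3 on wild type arrays. The log2 ratio of the 3' to the 5' control probe set, a measure of RNA integrity, overlapped between genotypes for Actb (0.65 to 0.89 on Bmal1-/- arrays, 0.74 to 0.91 on wild type arrays) and for Gapdh (-0.79 to -0.62 on Bmal1-/- arrays, -0.67 to -0.52 on wild type arrays). The hormone genes that define pituitary tissue were bright on every array, with summed intensities of 55220 to 58050 over 7 of them on Bmal1-/- arrays and 61040 to 69430 on wild type arrays. Of these 7 genes 2 fell, Cga (-0.31) and Gh (-0.27). With arrays set to equal medians they were at -0.25 and -0.21 and still passed (limma adjusted p 0.0311 and 0.0416). After quantile normalization they were at -0.04 and 0.0 and neither passed. That step gives every array the same values rank by rank, so it leaves the brightest probe sets little room to differ. At an unadjusted p under 0.05, 4 of the 7 were lower. The share of all genes under that unadjusted p is not given, so nothing is read from such counts, here or below. Gh no longer passed on dropping Bmal1-/- replicate 5, Bmal1-/- replicate 6, wild type replicate 1 or wild type replicate 3 (limma adjusted p up to 0.0996). Cga no longer passed on dropping Bmal1-/- replicate 4, Bmal1-/- replicate 6 or wild type replicate 3 (limma adjusted p up to 0.0834).

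Retinol, the transported form of vitamin A, travels in blood bound to RBP4 and transthyretin and is taken up into cells by STRA6. Inside the cell retinol dehydrogenases turn it into retinaldehyde, and the ALDH1A enzymes oxidise retinaldehyde irreversibly to retinoic acid. Retinoic acid is carried by CRABP proteins, activates RAR and RXR receptors on DNA, and is cleared by CYP26 enzymes. Retinoic acid made in the gland or its surroundings is known from pituitary development, and RXRG from thyrotrophs, where RXR ligands lower thyrotropin beta transcripts.

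Among the 9 genes, the carrier and the target read lower on the Bmal1-/- arrays, 1 synthesis enzyme read higher, and 4 genes were too dim to follow. Rbp4 stood at 36.9% of its wild type mean, the brightest Tgm2 probe set at 50.7% and Aldh1a2 at 150% of its wild type mean. Of the 16 probe sets 9 were among the 60% with the highest mean over all arrays, the part of the table that was tested. These belong to 5 genes: Rbp4, Aldh1a1, Aldh1a2, Rxrg and Tgm2. The other 7 probe sets read between 0.1 and 17.2 on every array, where the dimmest tested probe set had a mean level equal to 17.3.

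Across the whole table, 3.00% of 8033 genes rose and 2.66% fell at an adjusted p under 0.05, and the arrays of the genotypes did not overlap at 26.4% of genes. Of the 5 brighter retinoid genes 4 did not overlap. Since the genes were chosen on this comparison, nothing is read from that count.

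**Figure D1:**
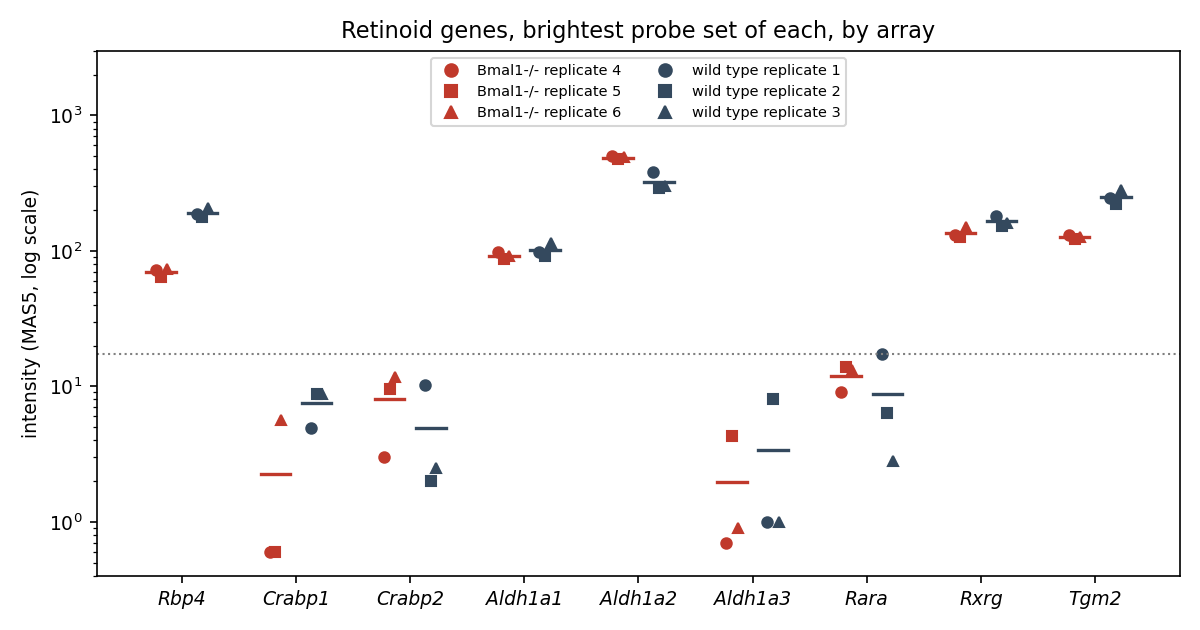
Intensity (log axis) of the brightest probe set of each of the 9 retinoid genes on the 3 Bmal1-/- arrays (red, left) and the 3 wild type arrays (dark, right), with bars at the means and a dotted line at 17.3, the level of the dimmest tested probe set. Rbp4 and Tgm2 lie lower and Aldh1a2 higher in Bmal1-/- glands, and Crabp1, Crabp2, Aldh1a3 and Rara lie near or under the line; levels of different genes cannot be set against each other on arrays.

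Rbp4, the plasma carrier of retinol, read 72.8, 64.2 and 73.6 on the Bmal1-/- arrays, against 186.7, 177.4 and 206.9 on the wild type arrays. Every Bmal1-/- array lay far below every wild type array, and the arrays of each genotype lay close together. The means were 70.2 ± 5.21 in Bmal1-/- glands and 190 ± 15.1 in wild type glands (SD, n = 3 each), a difference of -1.26 (SE 0.08) in log2(intensity + 16). With any 1 array left out, the difference was between -1.30 and -1.20. In bulk glands, fewer cells of a type and less RNA per cell cannot be told apart, for this gene and for those below.

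The sequence before the start of a gene is where clock and nuclear receptor factors are often found, and it is shown for the carrier and for the 2 enzymes with tested probe sets. RefSeq promoter windows of build GRCm38.p6, reaching from 250 bases before to 50 bases after each annotated start, matched 6 of the 9 genes: Rbp4, Crabp1, Aldh1a1, Aldh1a2, Rara and Rxrg, with 12 windows in all. Tgm2, Crabp2 and Aldh1a3 had no window, so no motif was searched for them. The 250 bases before the start are printed below 5' to 3' on the strand of the gene, with 1 start for each gene. Capitals mark the GC box GGGCGG, the TATA box TATAAA, the box CCAAT, the octamer ATGCAAAT, the E-box CACGTG, its variant CACGTT or the nuclear receptor half-site AGGTCA, each searched on both strands. All but the clock and receptor motifs were chosen after the sequences were seen.
Rbp4, chr19:38124812-38125061, minus strand: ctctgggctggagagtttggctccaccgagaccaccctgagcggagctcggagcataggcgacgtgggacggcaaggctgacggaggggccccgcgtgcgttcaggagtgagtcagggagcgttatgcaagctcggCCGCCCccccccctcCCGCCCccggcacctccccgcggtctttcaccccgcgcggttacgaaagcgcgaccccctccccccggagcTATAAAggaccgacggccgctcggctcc
Aldh1a2, chr9:71215539-71215788, plus strand: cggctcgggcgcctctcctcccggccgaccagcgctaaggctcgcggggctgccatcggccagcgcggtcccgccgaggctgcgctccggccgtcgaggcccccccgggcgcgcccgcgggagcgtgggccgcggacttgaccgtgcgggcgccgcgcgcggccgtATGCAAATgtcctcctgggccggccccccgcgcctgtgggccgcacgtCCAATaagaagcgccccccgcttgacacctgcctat
Aldh1a1, chr19:20601718-20601967, plus strand: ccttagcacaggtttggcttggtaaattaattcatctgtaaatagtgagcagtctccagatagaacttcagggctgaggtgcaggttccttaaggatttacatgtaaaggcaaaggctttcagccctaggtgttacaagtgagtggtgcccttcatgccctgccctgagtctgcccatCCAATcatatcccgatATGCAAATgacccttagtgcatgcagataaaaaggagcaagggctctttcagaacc

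The printed Rbp4 window holds a TATA box at position -28 from the start and GC boxes at -114 and -99 on the other strand. The Rbp4 window that is not printed holds neither motif and has a CCAAT box at -162. TATAAA occurs in 13.6% and GGGCGG in 35.7% of all 32851 promoter windows. The printed Aldh1a2 and Aldh1a1 windows each hold an octamer, the core site of POU factors, at -84 and at -56, and a CCAAT box, at -36 and at -72. The same Aldh1a1 window holds another CCAAT at -2, which runs past the start and so past the printed bases. The Aldh1a1 window that is not printed holds neither motif. The octamer occurs in 1.74% and CCAAT in 37.4% of all windows. The clock element CACGTG was found for Rara, as 1 site that 2 overlapping windows share, at -10 and at 13 from their starts, and for no other of the 6 genes with a window. It occurs in 7.15% of all windows, and CACGTT, found in 4.68%, was in none of the 12. Neither were the D-box forms TTACGTAA (0.119% of windows) and TTATGTAA (0.938%), nor the retinoic acid response elements made of AGGTCA repeated in the same direction after a spacer of 2 or of 5 bases (0.00913% of windows each). A single half-site AGGTCA, present in 16.3% of windows, was found for Rara and for Rxrg. The printed Aldh1a2 bases consist of 77.6% G and C, those of Rbp4 of 70.8% and those of Aldh1a1 of 46.4%. For the starts not printed the shares were 40.8% for Rbp4 and 42.8% for Aldh1a1. These matches describe letters, and a motif that is missing from a window may lie elsewhere in the gene.

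Crabp1 and Crabp2 bind retinoic acid in the cytosol, Crabp2 handing it on to the RAR receptors. Crabp1 read 0.6, 0.6 and 5.6 on the Bmal1-/- arrays, against 4.9, 8.7 and 8.8 on the wild type arrays. Crabp2 read 3, 9.5 and 11.8 on the Bmal1-/- arrays, against 10.3, 2 and 2.5 on the wild type arrays. Both genes were dim on all arrays and their genotypes overlapped, and at such levels a change of a few units decides the log2 difference. That of Crabp1 was -0.37, but -1.68 with a pseudocount of 1 and -0.11 with a pseudocount of 64, so no size is given for either gene.

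Of the 3 synthesis enzymes, Aldh1a2 and Aldh1a1 were bright enough to follow. Aldh1a2, the main source of retinoic acid in the embryo, read 501.4, 472.6 and 490.8 on the Bmal1-/- arrays, against 384.6, 289 and 300.1 on the wild type arrays. All Bmal1-/- arrays lay above all wild type arrays, and wild type replicate 1 lay apart from the other 2 wild type arrays, toward the Bmal1-/- ones. The means were 488 ± 14.6 in Bmal1-/- glands and 325 ± 52.3 in wild type glands (SD, n = 3 each). The log2 difference was 0.58 (SE 0.13), and it was 0.70 without wild type replicate 1 and 0.50 without wild type replicate 2. The spread within genotypes, a pooled SD of 0.15 on the log2 scale, was above the median of 0.10 for the 501 probe sets of like brightness.

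Aldh1a1, which also oxidises retinaldehyde and other aldehydes, read 97.5, 87.1 and 91.5 on the Bmal1-/- arrays, against 98.5, 91.7 and 114 on the wild type arrays. The genotypes overlapped, with a log2 difference of -0.12 (SE 0.09). A close rodent paralogue, Aldh1a7, had a probe set of its own that averaged 5.13 ± 2.57 in Bmal1-/- glands and 9.63 ± 5.90 in wild type glands. Aldh1a3 was dim on all 3 of its probe sets, with values between 0.6 and 4.3 on Bmal1-/- arrays and between 0.9 and 8.1 on wild type arrays. Aldh1a3 is on chromosome 7, as is Arntl, and none of the 9 genes lies within 20 Mb of Arntl.

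Rxrg, the RXR gamma subunit that pairs with RAR and thyroid hormone receptors, read 129.9, 127.3 and 149.5 on the Bmal1-/- arrays, against 180.7, 153.8 and 161.5 on the wild type arrays. The genotypes did not overlap, but the nearest arrays, Bmal1-/- replicate 6 and wild type replicate 2, were close. The log2 difference was -0.26 (SE 0.09), from means of 136 ± 12.1 in Bmal1-/- glands and 165 ± 13.9 in wild type glands (SD, n = 3 each). Rara, the RAR alpha receptor, read 9.1, 13.8 and 13.1 on the Bmal1-/- arrays, against 17.2, 6.4 and 2.8 on the wild type arrays. Its single probe set was dim and the wild type arrays alone spanned the Bmal1-/- range.

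Tgm2, the tissue transglutaminase that cross-links proteins and is induced by retinoic acid in many cell types, has 6 probe sets on the array. The brightest, 1417500_a_at, read 129.8, 122.3 and 126.1 on the Bmal1-/- arrays, against 245.6, 221.2 and 279.8 on the wild type arrays. The genotypes lay far apart, with means of 126 ± 3.75 in Bmal1-/- glands and 249 ± 29.4 in wild type glands (SD, n = 3 each) and a log2 difference of -0.89 (SE 0.09). Probe set 1437277_x_at read 112.4, 104.7 and 93.4 on the Bmal1-/- arrays, against 208.7, 239 and 170.5 on the wild type arrays, a log2 difference of -0.89 (SE 0.15). Probe set 1433428_x_at read 105.4, 78.9 and 71.5 on the Bmal1-/- arrays, against 232.5, 211.2 and 173.6 on the wild type arrays, a difference of -1.14 (SE 0.18). Probe set 1455900_x_at read 60, 50.4 and 49 on the Bmal1-/- arrays, against 177.4, 120.4 and 129 on the wild type arrays, a difference of -1.18 (SE 0.17). On all 4 the genotypes did not overlap.

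The 4 brightest Tgm2 probe sets thus differed in the same direction, by -1.18 to -0.89 on the log2 scale, although they did not order the wild type arrays alike. Wild type replicate 3 was the highest wild type array on 1417500_a_at and the lowest on 1437277_x_at and 1433428_x_at. The fifth, 1426004_a_at, read 24.2, 26.8 and 28.1 on the Bmal1-/- arrays, against 23.7, 31 and 36.7 on the wild type arrays. It was dimmer, its genotypes overlapped, and its difference was -0.12 (SE 0.13). The sixth, 1438942_x_at, read no more than 4.3 on any array. In Affymetrix names _x_at marks probe sets with probes that also match other sequences and _a_at those that match several transcripts of a gene. The probe sets measure the same gene on the same arrays, so they are not replicates of each other.

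**Figure D2:**
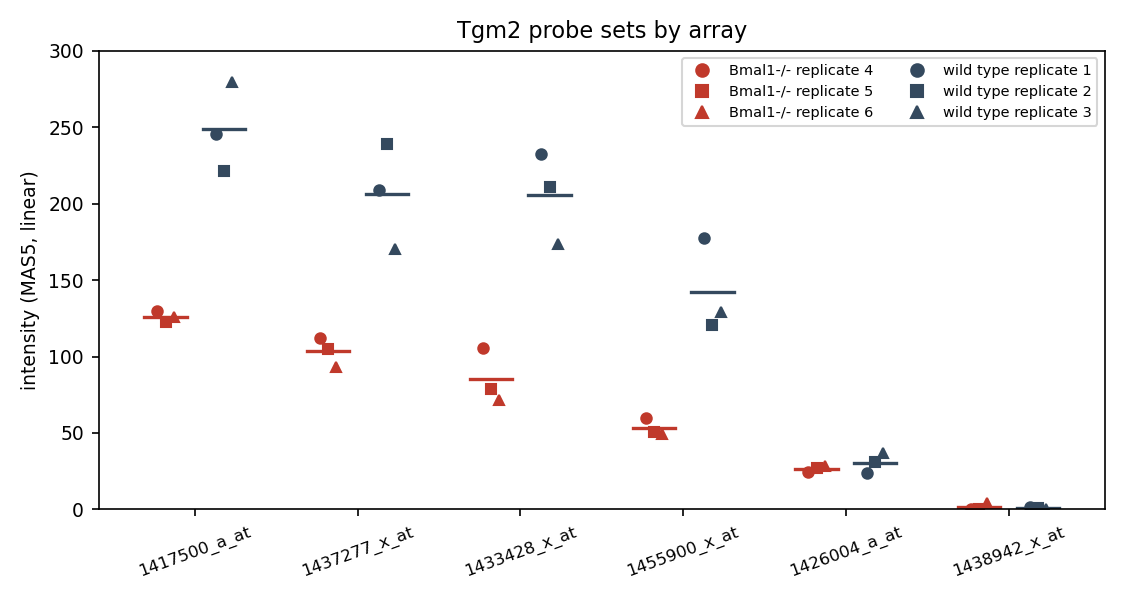
Intensity (linear axis) of the 6 Tgm2 probe sets on the 3 Bmal1-/- arrays (red, left) and the 3 wild type arrays (dark, right), with bars at the means. On the 4 brightest all Bmal1-/- values lie under all wild type values, while 1426004_a_at overlaps and 1438942_x_at stays at or under 4.3.

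**Figure D3:**
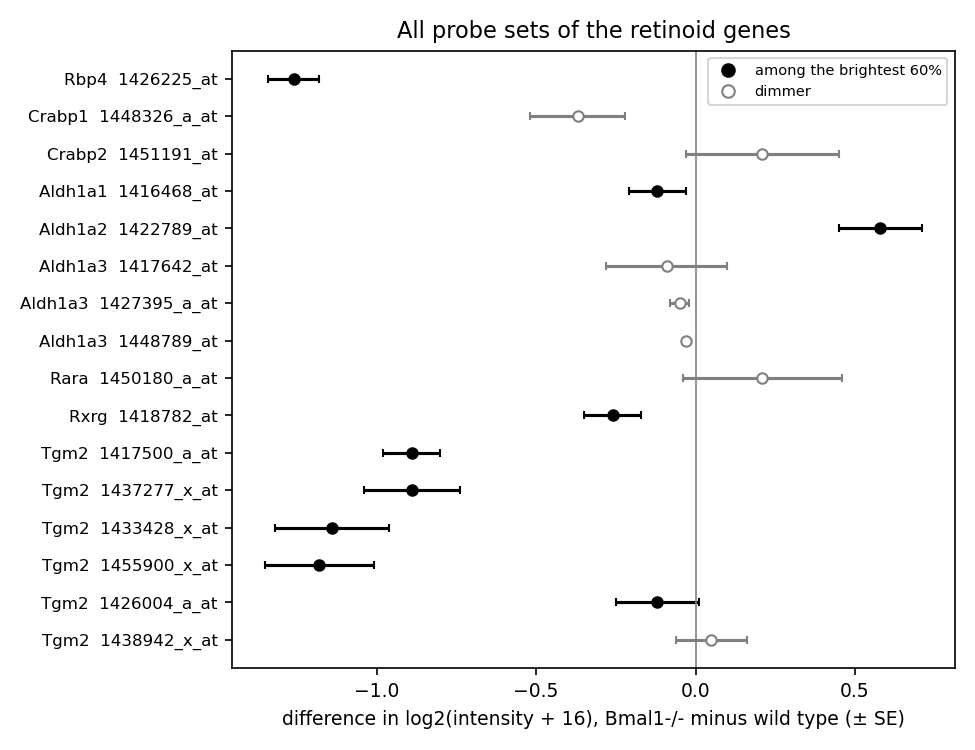
Difference in log2(intensity + 16), Bmal1-/- minus wild type, with its SE from 3 arrays per genotype, for all 16 probe sets of the 9 retinoid genes; filled points are among the brightest 60% of the table. Rbp4 at -1.26 and 4 Tgm2 probe sets between -1.18 and -0.89 lie lowest, and Aldh1a2 at 0.58 lies highest.

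Other genes of the pathway, and relatives in the ALDH1 and transglutaminase families, had no part in the choice of the 9. They were taken from 7 lists that hold 78 genes, some of them in more than 1 list. Of these, 59 have a probe set of their own and 26 were bright enough to be tested. By limma, 2 of the 26 rose, Fabp5 and Plat, and none fell, beside 3.00% and 2.66% of all genes. At an unadjusted p under 0.05 the counts were 3 higher and 0 lower. The median log2 fold change of the 26 was 0.03, against 0.00 for all genes tested. The lists were chosen with earlier results of these data known, so these counts are a description and no independent check.

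Fabp5, a fatty acid binding protein that can also carry retinoic acid to the receptor PPAR delta, read 479.2, 466.8 and 529.2 on the Bmal1-/- arrays, against 263.7, 254.9 and 268.5 on the wild type arrays. The genotypes lay far apart, and the log2 fold change was 0.87 (SE 0.08, limma adjusted p = 0.000101). Its other probe set rose as well, with means of 196 ± 19.8 in Bmal1-/- glands and 118 ± 5.43 in wild type glands (SD, n = 3 each, limma adjusted p = 0.0045). Ttr, the blood partner of RBP4, averaged 35.8 ± 9.15 in Bmal1-/- glands and 44.2 ± 7.02 in wild type glands and did not pass (log2 fold change -0.23, limma adjusted p = 0.475). The carriers Rbp2, Rbp3, Rbp7, Rlbp1 and the uptake receptor Stra6 had means under 10 in both genotypes.

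None of the 10 tested retinol and retinal enzymes passed in limma, with 1 higher and 0 lower at an unadjusted p under 0.05 and a median log2 fold change of 0.10. The smallest p-values were those of Rdh14 (0.24, adjusted p = 0.200) and Rdh10, the main retinol dehydrogenase of the embryo (-0.25, adjusted p = 0.261). The genotypes did not overlap for either. Rdh10 averaged 67.3 ± 4.85 in Bmal1-/- glands and 83.2 ± 6.24 in wild type glands, and Rdh14 averaged 202 ± 12.0 in Bmal1-/- glands and 169 ± 16.2 in wild type glands (SD, n = 3 each). Of the clearing enzymes, Cyp26a1 was dim and Cyp2s1 had a log2 fold change of 0.03 (SE 0.18). Of the other ALDH1 relatives only Aldh1l1, a folate enzyme, was tested (-0.33, SE 0.16, adjusted p = 0.254). The other transglutaminases Tgm1, Tgm3 and F13a1 were too dim to be tested.

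None of the 7 tested receptors and co-regulators passed in limma, and none had an unadjusted p under 0.05. The nearest were Rxrb (0.27, adjusted p = 0.292) and the coactivator Ncoa3 (0.23, adjusted p = 0.418). Rxra, Rarb and Rarg, named here to complete the receptor family, had log2 fold changes of -0.18, -0.11 and -0.11 with SEs of 0.14, 0.13 and 0.20.

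Of 8 tested retinoic acid target genes 1 rose, with a list median of -0.02. This was Plat, the tissue plasminogen activator, which read 244.2, 255.1 and 235.2 on the Bmal1-/- arrays, against 164.6, 106.4 and 93.5 on the wild type arrays. The genotypes did not overlap, and wild type replicate 1 again lay nearest the Bmal1-/- arrays. The log2 fold change was 0.96 (SE 0.16, limma adjusted p = 0.00467). Rarb, a classic direct target of retinoic acid, averaged 66.5 in Bmal1-/- glands and 73.1 in wild type glands and did not pass (adjusted p = 0.701). Dhrs3, another direct target, averaged 27.3 in Bmal1-/- glands and 25.0 in wild type glands (0.14, SE 0.25), and Rarres2 was at 0.21 (limma adjusted p = 0.497). Tgm2 at -0.89 and Plat at 0.96 lay on opposite sides of 0, with Rarb near 0. Tgm2 was chosen because it fell and Plat is named because it passed, and retinoic acid action was not tested.

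**Figure D4:**
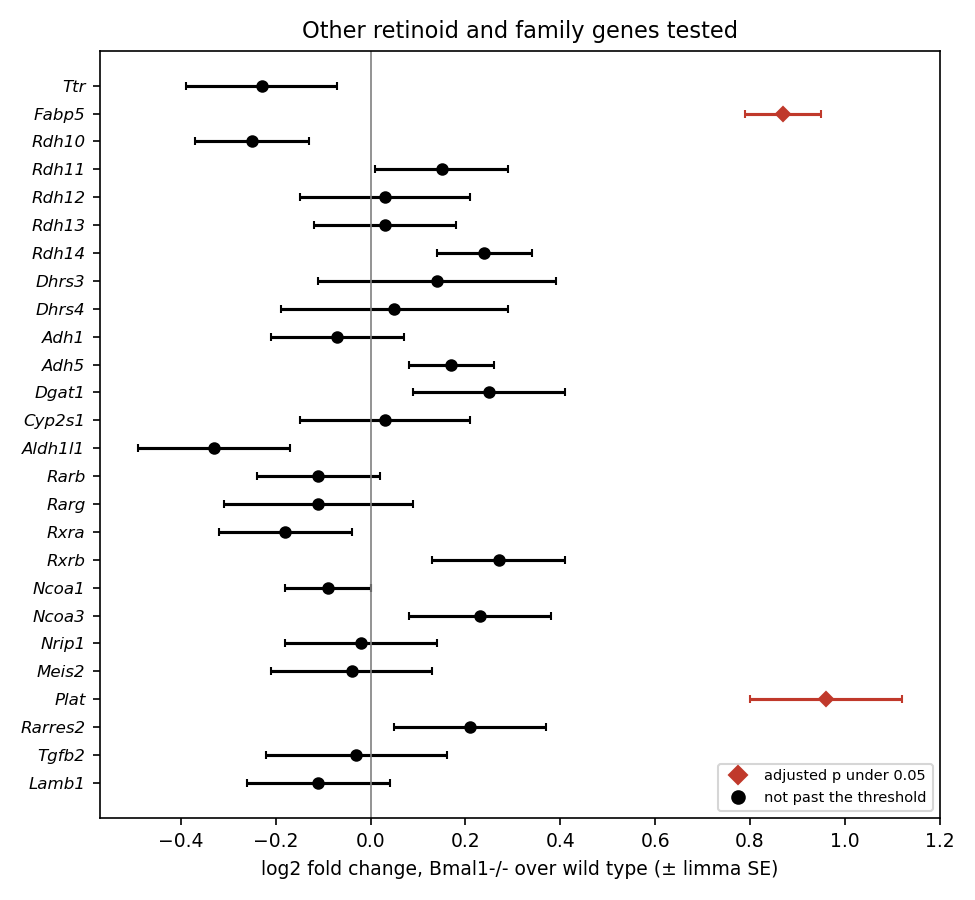
Log2 fold change, Bmal1-/- over wild type, with the limma SE, of the 26 tested retinoid and family genes that are not among the 9. Fabp5 at 0.87 and Plat at 0.96 (diamonds) pass the threshold, and the others lie between -0.33 and 0.27.

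Likeness over the 6 arrays was taken as Pearson's r of log2 levels with each of 8032 other tested genes, as a description in which the difference between the genotypes weighs most. Rbp4 and Tgm2, the latter at its brightest probe set 1417500_a_at, were among each other's 3 nearest genes, at 0.993. Both were chosen because they read lower on the Bmal1-/- arrays, so a high r is in part built in. Over the 6 arrays 1417500_a_at had an r of 0.87 with 1437277_x_at, 0.91 with 1433428_x_at and 0.95 with 1455900_x_at. With genotype means removed these were -0.83, -0.3 and 0.16. The other genes nearest Rbp4 were Aldh2, the mitochondrial aldehyde dehydrogenase (0.994), and Uvrag, an autophagy gene (0.993). Those nearest Tgm2 were Hsd11b1, which regenerates active glucocorticoid (0.993), and Aldh2 (0.992). All read lower on every Bmal1-/- array than on any wild type array. Aldh2 read 229.9, 211.1 and 213.2 on the Bmal1-/- arrays, against 344.8, 345.9 and 381.1 on the wild type arrays. Nearest Aldh1a2 were Cmtm7 (0.990), Cenpv (0.990) and 9130401M01Rik (0.989), all 3 with wild type replicate 1 as the highest wild type array. Of the 8032 genes, 311 had an r above 0.9 with Rbp4, 308 with Tgm2 and 225 with Aldh1a2.

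Rbp4, Tgm2 and Aldh1a2 are also known from cells other than hormone cells: Rbp4 from hepatocytes and adipocytes, Tgm2 from endothelium, macrophages and fibroblasts, and Aldh1a2 from meninges and other mesenchyme. Of the 5 hepatocyte markers on the array, Alb averaged 2.97 in Bmal1-/- glands and 3.73 in wild type glands, and Fgb and Ahsg averaged under 1 in both. Apoa1 averaged 8.40 in Bmal1-/- glands and 13.8 in wild type glands. Apoa2, bright enough to be tested, read 25, 18 and 20 on the Bmal1-/- arrays, against 9.6, 21.5 and 30.7 on the wild type arrays, and the genotypes overlapped. The 4 adipocyte markers on the array summed to 6.5 to 11.7 on Bmal1-/- arrays and 14.8 to 31.6 on wild type arrays, none bright enough to be tested. Adipoq averaged 0.267 in Bmal1-/- glands and 3.27 in wild type glands.

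The 8 macrophage markers summed to 365.2 to 426.1 on Bmal1-/- arrays and 515.2 to 555.9 on wild type arrays, without overlap. All 7 that were tested had log2 fold changes under 0, where 50.1% of all genes tested did, and their median was -0.32. Of the 7, 1 fell, the complement gene C1qa (-0.48, limma adjusted p = 0.0280). At an unadjusted p under 0.05, 4 were lower and 0 higher. Each fit on 5 of the 6 arrays ended that call, with limma adjusted p between 0.0504 (without wild type replicate 2) and 0.0898 (without Bmal1-/- replicate 4). Fibroblast and meningeal markers summed to 1418 to 1445 on Bmal1-/- arrays and 1531 to 1595 on wild type arrays, also without overlap. Col1a2 at its brighter probe set (mean 804 in Bmal1-/- glands, 651 in wild type glands) and Dcn (269 and 479) weigh most in that sum and moved in opposite directions. Of the 8 tested, Dcn, a matrix proteoglycan, fell (-0.80, limma adjusted p = 0.000312) and Col1a2 rose (0.30, adjusted p = 0.0399). The other Col1a2 probe set did not rise: it was at -0.07, with overlapping genotypes (limma adjusted p = 0.742). At an unadjusted p under 0.05, 3 of these 8 were lower and 1 was higher. The Dcn call held in all 15 alternatives, while that of Col1a2 ended on dropping Bmal1-/- replicate 5, Bmal1-/- replicate 6, wild type replicate 1 or wild type replicate 3 (limma adjusted p up to 0.140). The meningeal transporters Slc22a6 and Slc6a13 were near 0, at means of 3.70 and 4.43 in Bmal1-/- glands and 2.77 and 2.00 in wild type glands.

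Endothelial markers overlapped, at summed intensities of 724 to 848.5 on Bmal1-/- arrays and 641.3 to 748.1 on wild type arrays. Of 9 tested, Plvap rose (0.40, limma adjusted p = 0.0287) and none fell, with none lower at an unadjusted p under 0.05 either. The Plvap call ended on dropping Bmal1-/- replicate 4, Bmal1-/- replicate 5, wild type replicate 1 or wild type replicate 3 (limma adjusted p up to 0.103). Folliculostellate and stem cell markers summed to 231.8 to 272.1 on Bmal1-/- arrays and 262.5 to 319.1 on wild type arrays. Sox2 weighs most in that sum (mean 154 in Bmal1-/- glands, 149 in wild type glands). None of the 4 tested passed in limma, with 2 under 0 and 2 above 0. At an unadjusted p under 0.05, 1 was lower, Anxa1 (26.4 and 49.0). Of the dim markers, S100b (4.13 and 12.1) and Gfra2 (8.57 and 18.1) were lower without overlap, and Fut4 (2.73 and 0.833) was higher with overlap. Posterior lobe markers summed to 63.1 to 76 on Bmal1-/- arrays and 62.1 to 67.6 on wild type arrays, and red cell markers to 59.8 to 107.7 on Bmal1-/- arrays and 68.1 to 116.6 on wild type arrays. Only 1 of the 6 posterior lobe markers, Aqp4, and 1 of the 2 red cell markers, Alas2, were bright enough to be tested. These 2 sums thus rest largely on 1 gene each and cannot show whether those cells were alike between genotypes. The part of macrophages, fibroblasts and other cells in the retinoid gene differences was not tested.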

How the data were processed

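The deposited table gives, for each array, the linear intensity of every probe set, which the authors made with MAS5 per the submitters' processing notes. The MAS5 version and target value were not given in the sources used here, and no detection calls were used. The 2% trimmed mean was 100.0 on all arrays, and MAS5 background subtraction makes low values noisy. Of 22690 probe sets 64 controls were left out. The platform annotation names 1 gene for 20380 of the others and several for 691, which were not used.

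Values were transformed to log2(intensity + 16), a scale that understates changes of dim genes. The brightest 60% of probe sets by their mean, 13576, were tested with limma 3.58.1 in R 4.3.3 (lmFit, eBayes with intensity trend, two-sided), with Benjamini-Hochberg adjustment over all of them and a threshold of 0.05. A gene was represented by its brightest probe set. SEs of the 9 genes come from the spread of their own arrays. The fit was also run on simulated arrays with normal noise of the size of the intensity trend. There it recovered 67.1% of log2 changes of 0.5 and 99.8% of changes of 1. Real probe sets can spread otherwise, so no error rate for these data is drawn from it. Precision is limited by the number of arrays.

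The 9 genes, the lists and the tests were chosen with earlier results of these data known. Named are all 9, Arntl, the genes of each pathway list that passed or had the smallest p-values (up to 2), 3 like genes each for Rbp4, Tgm2 and Aldh1a2, and markers that passed. Named outside this rule, after their values were seen, are dim markers and relatives (such as Alb, Apoa2, Adipoq, Slc22a6, Aldh1a7 and the untested list genes). Rxra, Rarb, Rarg, Dhrs3, Sox2, Anxa1, Aqp4 and Alas2 were also named outside it. Other settings tried were a pseudocount of 1 or 64, arrays set to equal medians or to equal quantiles, the top 40% of probe sets or all of them, eBayes without the trend or robust, a gene's averaged probe sets, and each array left out in turn.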

Additional observations from a re-analysis of the deposited data

How the results depend on the processing

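Fabp5 and Plat passed, upward, under all 15 alternatives run, with log2 fold changes of 0.76 to 0.93 and 0.75 to 1.17 and highest adjusted p (limma) of 0.00364 and 0.0275. The counts of other retinoid and family genes stayed at 2 higher and 0 lower in each. Rbp4 moved to -1.43 and -0.92 with pseudocounts of 1 and 64, and Tgm2 to -0.71 with 64. Leaving out 1 array gave -1.30 to -1.20 for Rbp4, -0.97 to -0.81 for Tgm2 and 0.50 to 0.70 for Aldh1a2. Rxrg (-0.32 to -0.20) and Aldh1a1 (-0.18 to -0.04) kept their sign. The dimmest Tgm2 probe set had the other sign, at 0.05, at levels too low to give a direction. Of all probe sets tested, 752 passed, against 330 with no filter, 407 without the intensity trend and 314 to 950 with 1 array left out (lowest without wild type replicate 3, highest without wild type replicate 2); each of these last fits also has fewer arrays. The median log2 fold change of tested probe sets was -0.01, and 0.01 and 0.05 with quantile normalization and equal medians. Besides leaving out arrays, testing without the brightness filter ended the calls of Gh (limma adjusted p 0.125), Cga (0.0918), Plvap (0.0579), Col1a2 (0.0751) and C1qa (0.0556), as did, but for C1qa, dropping the trend (highest limma adjusted p 0.169, Gh). Quantile normalization ended those of Gh, Cga (0.664) and Col1a2 (0.0535). It leaves probe sets as bright as those of Gh and Cga little room to differ between arrays. Averaging probe sets ended the Col1a2 call (0.388). For the 4 dim genes the low signal sets the limit. No paired analysis was possible because the genotypes share no replicate numbers.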
